A study of Homo sapiens with 9 samples.

Results

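The regions described here are very broad RNA polymerase II (RNAPII) domains: peaks of RNAPII chromatin immunoprecipitation and sequencing (ChIP-seq) that ran without a break for at least 10 kb. They were chosen by the length given with each peak in 5 peak lists, so their length, and the RNAPII signal that sets it, is a description and not a finding. There were 2543 such domains among 142069 peaks. All cells were HEK293, a human embryonic kidney line, and RNAPII was precipitated with the antibody 4H8, which recognises all forms of the enzyme. In 3 libraries the cells carried a lentivirus, either the empty pLKO.1 vector (control shRNA) or a short hairpin RNA against the helicase gene RECQL5 (shRNA5 or shRNA7). In 2 libraries they were T-REx cells with a full-length RECQL5 coding sequence on pcDNA4/TO, which doxycycline switches on, kept at 0.0 ng/ml (no doxycycline) or 1.0 ng/ml (doxycycline) of the drug. The background of each peak call was a library made with non-specific IgG, which each hairpin had for itself and the 2 doxycycline lists shared. Each group was 1 library. No difference between lists could therefore be tested against replicates, and the 95% intervals below cover counting error over domains only.

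RNAPII is the enzyme that transcribes protein-coding genes. It initiates at the transcription start site (TSS), commonly pauses shortly downstream of it, travels through the gene and continues past the site where the transcript is cut and polyadenylated before it lets go of the DNA. At most active genes, an RNAPII profile is high at the TSS and lower over the gene body, so that peaks are short and several can lie along 1 gene. A peak over many kilobases requires a high density of the enzyme along the gene, as at the most heavily transcribed genes, such as those of ribosomal proteins, translation factors and RNA-binding proteins. RECQL5 binds RNAPII directly and acts on transcript elongation.

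The control shRNA list held 102 domains among 5287 peaks, or 1.93% (95% Wilson interval 1.59% to 2.34%). Upon shRNA5 there were 643 among 23698 peaks (2.71%, 2.51% to 2.93%), and upon shRNA7 there were 1571 among 32124 (4.89%, 4.66% to 5.13%). The no doxycycline list held 106 among 47060 peaks (0.225%, 0.186% to 0.272%), and the doxycycline list held 121 among 33900 (0.357%, 0.299% to 0.426%). The share of very broad peaks was thus higher in both RECQL5 hairpin lists than in their control. The study's methods give higher peak numbers for wild-type, shRNA5 and shRNA7 cells than these lists hold. The gap is proportionally largest for wild-type cells, if these are the control shRNA cells, and its reason was not tested. Comparisons with control shRNA below rest on this shorter list. Within the doxycycline arm the share was higher with the drug. The numbers of domains themselves, 106 and 121, were close, while the list with the drug held fewer peaks. When peaks under 1 kb apart were joined first, the doxycycline arm held more domains than the control shRNA list, 519 without and 490 with the drug against 200. Joining also raised the number upon shRNA5 to 1186 and upon shRNA7 to 2504. The number of domains thus depended on this setting in every list, and the reason was not tested.

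At the threshold, the shortest domain of each list and the longest peak left out were close in length but not always in density. Control shRNA had RBBP7 inside (10011 bp, 60.2 tags per kb) and ATF4 outside (9995 bp, 118 tags per kb). shRNA5 had PHF10 inside (10000 bp, 57.5 tags per kb) and ATP2A2 outside (9997 bp, 58.5 tags per kb). shRNA7 had PURA inside (10003 bp, 73.1 tags per kb) and YARS1 outside (9995 bp, 74.9 tags per kb). In the doxycycline arm, PPP1R10 (10025 bp, 54.9 tags per kb) and RBM14-RBM4 (9926 bp, 40.2 tags per kb) flanked the threshold without the drug, and RPS3 (10012 bp, 73.1 tags per kb) was the shortest domain with it. ATF4, left out of the control shRNA list by its length, was denser than the domain just inside.

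Of the protein-coding genes in the annotation, 15 were covered from end to end by a single domain in each of the 5 lists. They were RPL3, RPL5, RPL32 and RPS19 (ribosomal proteins), EEF2 (the translation elongation factor that moves the ribosome along), HNRNPA1, HNRNPAB, SRSF3, SRSF7, SNRPB and DDX39B (pre-mRNA binding, splicing and export), MAT2A (methionine adenosyltransferase), KPNA2 (a nuclear import receptor), BRD2 (a bromodomain protein that binds acetylated histones) and MCCD1, a short gene next to DDX39B. They span 1271 to 12912 bp. The upstream edge of the domain lay at or beyond the annotated start of all 15 in every list. The 200 bases before this start are printed here for 5 of them, picked as examples. They are from GRCh37, 5′ to 3′ on the strand of the gene, and no annotated exon lies in them. Capitals mark, on either strand, GGGCGG (the core of a GC box), the CCAAT box, the TATA-like TATAAA, the polyadenylation hexamer AATAAA, and the E-box CACGTG.
EEF2, chr19:3985462-3985661, minus strand: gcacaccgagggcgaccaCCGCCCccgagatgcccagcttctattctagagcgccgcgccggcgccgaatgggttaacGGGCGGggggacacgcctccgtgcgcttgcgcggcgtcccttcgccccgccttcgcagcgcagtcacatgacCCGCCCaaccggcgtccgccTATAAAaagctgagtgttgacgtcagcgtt
SRSF3, chr6:36561930-36562129, plus strand: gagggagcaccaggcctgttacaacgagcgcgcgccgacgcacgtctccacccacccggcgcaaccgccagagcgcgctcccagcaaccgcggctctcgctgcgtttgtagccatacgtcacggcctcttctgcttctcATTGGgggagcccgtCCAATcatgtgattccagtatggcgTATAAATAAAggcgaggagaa
MAT2A, chr2:85766091-85766290, plus strand: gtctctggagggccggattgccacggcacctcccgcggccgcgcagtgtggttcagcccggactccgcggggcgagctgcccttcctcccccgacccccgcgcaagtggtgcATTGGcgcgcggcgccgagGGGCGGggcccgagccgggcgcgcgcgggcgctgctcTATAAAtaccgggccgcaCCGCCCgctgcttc
RPL32, chr3:12883082-12883281, minus strand: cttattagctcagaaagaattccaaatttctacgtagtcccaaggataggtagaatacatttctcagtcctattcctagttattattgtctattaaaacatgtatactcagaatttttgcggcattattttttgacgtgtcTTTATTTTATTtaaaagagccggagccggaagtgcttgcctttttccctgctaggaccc
RPS19, chr19:42364125-42364324, plus strand: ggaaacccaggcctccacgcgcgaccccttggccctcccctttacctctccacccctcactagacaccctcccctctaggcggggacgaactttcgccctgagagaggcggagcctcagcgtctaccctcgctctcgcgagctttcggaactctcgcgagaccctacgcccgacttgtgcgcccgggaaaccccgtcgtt

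These windows, picked as examples, differed from one another and do not stand for the other genes. GC content was 68% before EEF2, 61.5% before SRSF3, 76.5% before MAT2A, 36.5% before RPL32 and 66% before RPS19. The TATA-like hexamer TATAAA stood near the start in EEF2, SRSF3 and MAT2A and was not found in the RPL32 and RPS19 windows, and in SRSF3 it overlapped AATAAA. Over the 200 bases before all 20163 annotated protein-coding starts searched, TATAAA was found in 8.11%. It was found before 9 of the 72 genes whose start lay in a control shRNA domain (12.5%, 6.72% to 22.1%), 26 of 439 upon shRNA5 (5.92%, 4.07% to 8.54%) and 78 of 1224 upon shRNA7 (6.37%, 5.14% to 7.88%). Without and with doxycycline it was found before 12 of 91 (13.2%, 7.71% to 21.6%) and 10 of 87 (11.5%, 6.36% to 19.9%). The GC-rich hexamer GGGCGG was found before 46.4% of all starts, against 61.1%, 55.1% and 57.3% of those in control shRNA, shRNA5 and shRNA7 domains and 54.9% and 55.2% in the doxycycline arm. CCAAT was found before 29.2% of all starts and 34.7%, 33.9% and 34% of those in control shRNA, shRNA5 and shRNA7 domains, and before 26.4% and 34.5% of those in domains without and with doxycycline. AATAAA was found before 10.7% of all starts and, in the same list order, 6.94%, 6.38%, 8.74%, 5.49% and 10.3% of those in domains. For the E-box the shares were 6.26% of all starts and 2.78%, 6.61%, 6.70%, 5.49% and 5.75% of those in domains. A match is a description of letters and not of a bound factor.

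In 300 bases around the summit, the point of highest signal in the peak, no doxycycline domains held GGGCGG most often and AATAAA least often. GGGCGG was found at 61 of 106 domain summits without doxycycline (57.5%, 48.0% to 66.5%) and 47 of 121 with it (38.8%, 30.6% to 47.7%), against 25.3% and 23.9% of all peak summits in those lists. In the hairpin arm it was found at 29.4% of control shRNA, 22.7% of shRNA5 and 27.8% of shRNA7 domain summits, beside 31.9%, 20.7% and 20.9% of all summits. AATAAA, the core of most polyadenylation signals, was found at 9 of 106 domain summits without doxycycline (8.49%, 4.53% to 15.4%), where 25.2% of all summits held it. Its domain and overall shares were 23.5% and 21.9% in control shRNA, 28.8% and 31.3% upon shRNA5, 24.9% and 32.6% upon shRNA7, and 18.2% and 29.4% with doxycycline. TATAAA was found at 30 of 102 control shRNA domain summits (29.4%, 21.4% to 38.9%) and 14.2% of all summits of that list, while the domain and overall shares were 20.8% and 21% upon shRNA5, 17.8% and 22.1% upon shRNA7, 19.8% and 15.4% without and 24.8% and 19.8% with doxycycline. CCAAT was found at 32.2% to 40.2% of domain summits over the 5 lists, beside 29.6% to 35.4% of all summits. CACGTG was found at 2.94% to 5.66% of domain summits, beside 4.42% to 5.43% of all summits. Domains were slightly less GC-rich than all peak bases in 4 lists, with 44.5% against 48.5% for control shRNA, 45.0% against 45.9% for shRNA5, 48.4% against 51.5% without and 45.2% against 49.1% with doxycycline. Upon shRNA7 they were slightly richer, with 46.5% against 45.9%. The genome has 40.9%.

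The domains were also dense, which is tied to how they were chosen, since the RNAPII signal sets peak length. Their median number of sequenced tags per kb, which the authors did not scale to library depth, was 73.4 (95% order-statistic interval 69.7 to 80.2) in the control shRNA list, 75.5 (73.6 to 77.9) upon shRNA5 and 76.7 (75.2 to 78.3) upon shRNA7. It was 65.5 (58.6 to 71.9) without and 73.2 (66.2 to 79.0) with doxycycline. The shorter peaks of the same lists had medians of 48.0, 45.7, 45.1, 22.2 and 32.5 in that order, and peaks of 5 to 10 kb had 56.8, 60.1, 58.5, 46.2 and 56.0. Length and density thus went together in every list. Of the 2543 domains, 1 upon shRNA7 lay under the median of the shorter peaks of its list. The false discovery rate given by the authors was over 5% for 56 domains upon shRNA7 and 1 in control shRNA, and for 0 in the other lists. Domains were 10.05% of peak bases and 15.7% of peak tags in the control shRNA list, 14.9% and 22.1% upon shRNA5, and 23.5% and 34% upon shRNA7. In the doxycycline arm they were 3.53% and 7.80% without the drug and 5.22% and 9.69% with it.

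**Figure D1:**
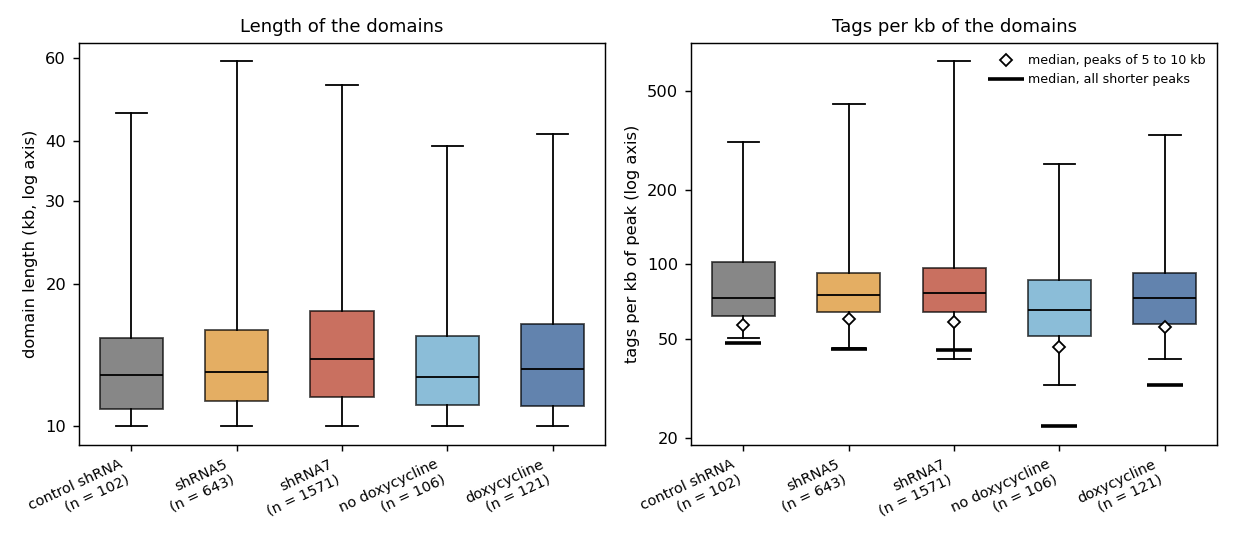
Domain length in kb (left, log axis) and tags per kb (right, log axis) in the 5 lists; boxes show the quartiles and median over the domains of 1 library, whiskers the lowest and highest domain, diamonds the median of peaks of 5 to 10 kb and thick dashes that of all shorter peaks. Median lengths lie between 12720 and 13882 bp, and the domain medians of 65.5 to 76.7 tags per kb lie above both comparison medians in each list.

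Median domain length was 12865 bp in the control shRNA list, 13046 bp upon shRNA5, 13882 bp upon shRNA7, 12720 bp without doxycycline and 13200 bp with it. The hairpin lists against RECQL5 had the longer tail, since 7 domains of control shRNA, 79 of shRNA5 and 258 of shRNA7 reached 20 kb, beside 8 and 13 in the doxycycline arm. At 30 kb there were 2, 12, 67, 2 and 2. Of all domains, all but 2 upon shRNA7 lay on chromosomes 1 to 22 and X.

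The longest domain in 4 lists covered XIST, the non-coding RNA gene of X inactivation, with its antisense gene TSIX beside it. It measured 46002 bp with 311 tags per kb in the control shRNA list and 59190 bp with 442 tags per kb upon shRNA5. It measured 45917 bp with 661 tags per kb upon shRNA7, 39151 bp with 255 tags per kb without doxycycline and 41446 bp with 332 tags per kb with it. No domain of any list had more tags per kb. In the control shRNA list the domains of HNRNPU (33181 bp, 102 tags per kb) and HNRNPA2B1 (24549 bp, 129 tags per kb) followed, both genes of abundant nuclear RNA-binding proteins. Among the 10 longest were also PPP1R10, MDM2, DDX3X, BRD2, IRS4 and SRSF3, between 18430 and 22333 bp. Upon shRNA5 PCBP2 (41069 bp, 113 tags per kb) and HNRNPC (38925 bp, 105 tags per kb), again RNA-binding proteins, stood behind XIST. Upon shRNA7 the 3 longest domains covered P4HB (protein disulfide isomerase), the histone gene H2BC11 and KMT2E (a chromatin regulator). The P4HB domain was 52769 bp long and held ARHGDIA and ALYREF whole as well. The H2BC11 domain was 50957 bp long and held 5 histone genes whole, and the KMT2E domain was 49863 bp long and lay over 28.6% of its gene.

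In both doxycycline lists PCBP2 and TRA2B, a splicing activator, came next after XIST. PCBP2 measured 34372 bp without and 37184 bp with the drug, and TRA2B measured 28210 and 26886 bp. Without the drug the others of the 10 longest were the 5S ribosomal RNA array (RNA5S6), ENO1 (a glycolytic enzyme), KLHL15, DDX3X, SFPQ, HNRNPH1 and PABPC4, from 18647 to 26003 bp. With it they were YBX1, ENO1, YWHAE, EIF3A, POLR2A (the largest RNAPII subunit), MDM2 and SFPQ, from 20420 to 24041 bp.

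By tags per kb, other genes stood behind XIST. In the control shRNA list EGR1, an immediate early transcription factor, had 256 and EEF1A1, the elongation factor that brings aminoacyl-tRNA to the ribosome, had 164. Upon shRNA5 EGR1 had 246 and SOX4, a developmental transcription factor, 225. Upon shRNA7 PMAIP1, a p53-induced regulator of apoptosis, had 349 and the histone gene H4C14 had 336, the latter in a domain of 31331 bp with 6 whole histone genes. Without doxycycline EEF1A1 had 144 and the domain over HNRNPAB and part of PHYKPL had 132. With it EEF2 had 160 and the domain that lies over part of PIN4 and carries RPS4X had 155. Histone genes that share near-identical sequence can divide or lose tags in alignment, so values at these clusters are uncertain.

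Overlapping domains from the 5 lists made up 1728 places over 27.6 Mb. A domain was present in 1 list at 1209 of them (70.0%), in 2 lists at 374, in 3 at 72, in 4 at 39 and in all 5 at 34. Of these places, 1074 had a domain upon shRNA7 alone and 346 upon shRNA5 and shRNA7 alone. Only 12 places had a domain in the doxycycline arm without one in the hairpin arm, and 135 of its 147 places were shared with the hairpin arm. The 2 doxycycline lists had 68 places in common.

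The 34 places with a domain in every list were the ground common to all 5 libraries. By the gene that shares most bases, the 20 longest included XIST/TSIX, MDM2, KPNB1, HNRNPA2B1, HNRNPU, POLG, PRRC2B, PHYKPL (over HNRNPAB), SRSF3, BRD2, DDX3X, CBX5 (over HNRNPA1), SFPQ, CEP95 (beside DDX5), GATC (beside SRSF9), ATP6V1G2-DDX39B, EEF2, RPL3 and RPS19. Among them HNRNPA2B1, HNRNPU, SRSF3 and SFPQ encode proteins that bind or process pre-mRNA. Over the 34 places the longest peak ranged from 10028 to 46002 bp in the control shRNA list (median 14156 bp), from 11335 to 59190 bp upon shRNA5 and from 12982 to 49316 bp upon shRNA7 (median 20738.5 bp). It ranged from 10295 to 39151 bp without and from 10116 to 41446 bp with doxycycline. The longest peak was longer upon shRNA5 than in the control shRNA list at 32 of 34 places, longer upon shRNA7 than in control at 33, and ordered control, shRNA5, shRNA7 at 29. With doxycycline it was longer than without at 14 of 34.

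**Figure D2:**
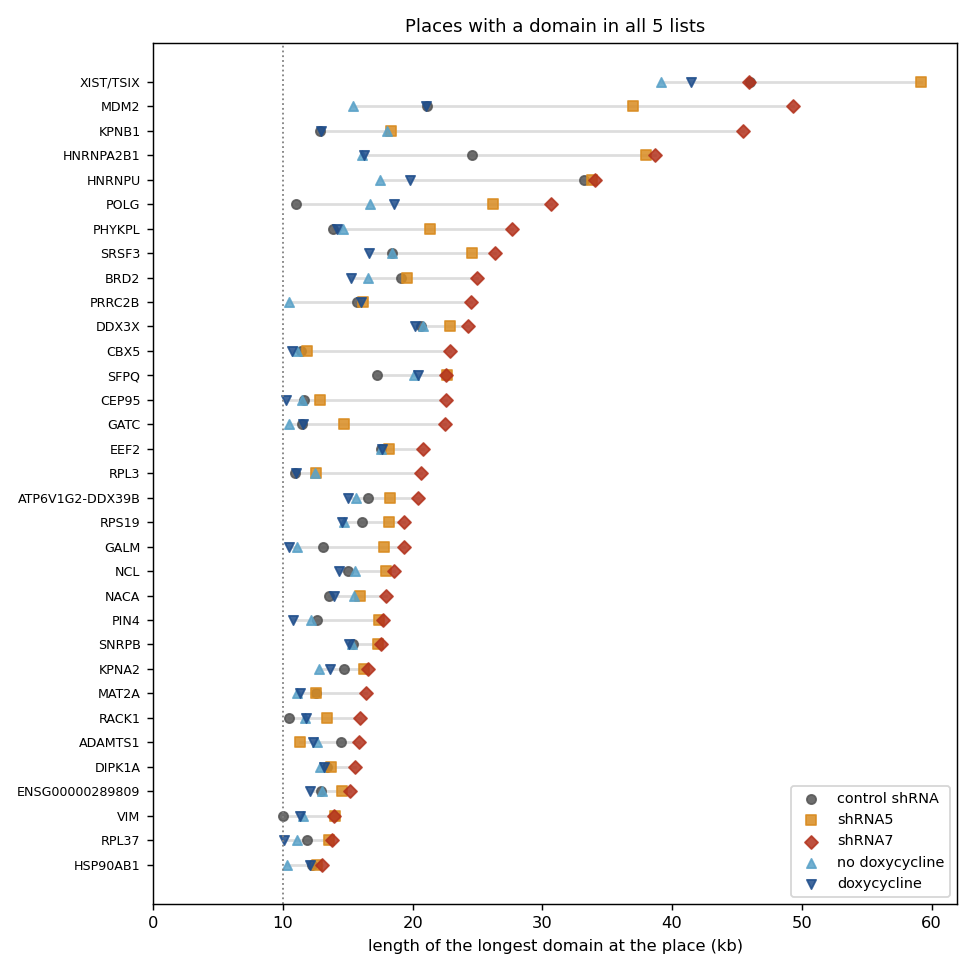
Length in kb of the longest domain at the places with a domain in all 5 lists (1 of the 34 is not shown), 1 symbol per library; the dotted line marks the 10 kb minimum and the names are those of the protein-coding gene (or other gene) sharing most bases. The shRNA7 diamonds are farthest right at most places, and the doxycycline symbols stay between 10116 and 41446 bp.

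Splicing regulators gave some of the clearest values. SRSF3, a member of the serine/arginine-rich (SR) family, had a domain of 18430 bp with 122 tags per kb in the control shRNA list, 24592 bp with 157 upon shRNA5 and 26344 bp with 222 upon shRNA7. Without doxycycline it was 18414 bp with 86.2 tags per kb and with it 16634 bp with 103. The gene was covered whole in every list. SFPQ, a paraspeckle and splicing protein, had 17227 bp with 110 tags per kb in control shRNA, 22627 bp with 159 upon shRNA5, 22577 bp with 213 upon shRNA7, 20068 bp with 81.2 without and 20420 bp with 102 with doxycycline. Its shRNA5 and shRNA7 domains were of nearly the same length but not of the same density.

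MDM2, the ubiquitin ligase of p53, showed a stepwise series. Its longest peak was 21086 bp with 57.9 tags per kb in the control shRNA list, where 6 peaks lay along the place. It was 36972 bp with 91.1 tags per kb upon shRNA5, with 3 peaks, and a single one of 49316 bp with 212 tags per kb upon shRNA7. Without doxycycline 9 peaks lay there, the longest of 15415 bp with 57.5 tags per kb, and with it 6, the longest of 21029 bp with 71.0 tags per kb. KPNB1, a nuclear import receptor, went from 12829 bp in control shRNA to 18304 bp upon shRNA5 and 45466 bp upon shRNA7, and was 18032 bp without and 12959 bp with doxycycline.

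At other places the lengths lay closer together. DDX3X, an RNA helicase gene, had 20650 bp in control shRNA, 22881 bp upon shRNA5, 24241 bp upon shRNA7, 20765 bp without and 20158 bp with doxycycline. EEF2 had 17557, 18142 and 20795 bp in the hairpin arm and 17565 and 17620 bp in the doxycycline arm. ADAMTS1, a secreted protease gene, had 14448 bp in control shRNA, 11335 bp upon shRNA5, where the place was split in 2 peaks, and 15848 bp upon shRNA7. HNRNPU was 33181, 33815 and 34077 bp long in the hairpin arm, and 17494 and 19784 bp were the longest peaks without and with doxycycline, where 5 and 2 peaks lay along it. Among the 34 places, a single peak was found at 33 upon shRNA7, 23 upon shRNA5, 24 in control shRNA, 6 without doxycycline and 10 with it.

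**Figure D3:**
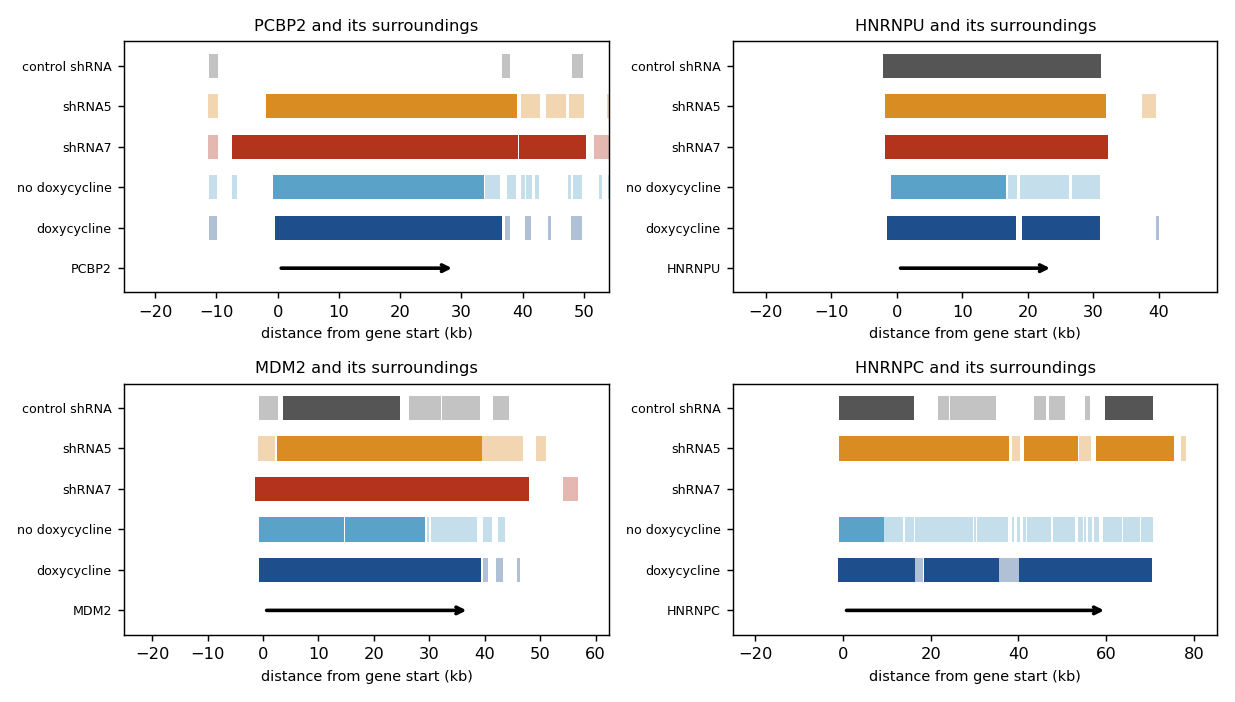
Peaks around PCBP2, HNRNPU, MDM2 and HNRNPC as distance in kb from the start of the gene, with the gene as an arrow; full colour marks domains, pale colour shorter peaks, and each row is 1 library. MDM2 has 1 domain of 49316 bp upon shRNA7 where the other lists have several peaks, and the shRNA7 row is empty at HNRNPC.

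Across the annotation, domains touched 161 of 20176 protein-coding genes (0.798%) in the control shRNA list, 1049 (5.2%) upon shRNA5 and 2536 (12.6%) upon shRNA7. They touched 162 (0.803%) without and 165 (0.818%) with doxycycline. The counts of gene families below are read against these shares, as a description with no test. Touching means an overlap of at least 1 bp, so a domain can lie mostly outside a counted gene. The same domain can also count for several genes. Heterogeneous nuclear ribonucleoprotein (hnRNP) genes, whose proteins coat and process pre-mRNA, were touched at 10, 18 and 21 of 27 in the control shRNA, shRNA5 and shRNA7 lists and at 12 and 13 without and with doxycycline. All 27 had at least 1 peak of any length upon shRNA5 and in both doxycycline lists, and 23 and 24 in the control shRNA and shRNA7 lists. The longest hnRNP domains belonged to PCBP2 (46818 bp upon shRNA7), HNRNPC (38925 bp upon shRNA5) and HNRNPA2B1 (38700 bp upon shRNA7). SR splicing factor genes were touched at 4, 10 and 11 of 14 in the hairpin arm, and at 5 and 6 in the doxycycline arm. SRSF1 was covered whole by 26931 bp upon shRNA5, 33639 bp upon shRNA7 and 10287 bp with doxycycline, and it had no domain in the other lists.

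Cytosolic ribosomal protein genes were touched at 9, 31 and 50 of 78 in the hairpin arm and at 12 and 10 in the doxycycline arm, although each of the 78 had a peak in every list. Ribosomal protein genes are mostly short, so that a domain over one commonly takes in its flanks or neighbours. RPL23A, which lies among other genes, was covered by 13234 bp in control shRNA, 13229 bp upon shRNA5 and 38947 bp upon shRNA7. Translation factor genes were touched at 4, 12 and 21 of 36 in the hairpin arm and at 5 and 4 in the doxycycline arm. EIF4A1, the helicase of translation initiation, had 13349 bp with 121 tags per kb in control shRNA, 16278 bp with 165 upon shRNA5 and 36248 bp with 151 upon shRNA7. Genes that host small nucleolar RNAs in their introns, among them RACK1, NCL and RPL3, were touched at 5, 13 and 20 of 28 and at 7 and 5.

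Families of stress and metabolism were counted in the same way. Heat shock and chaperone genes were touched at 1, 12 and 14 of 24 in the hairpin arm and at 1 and 2 in the doxycycline arm. HSP90AB1 alone was touched in all 5 lists. Domains of 23866 bp upon shRNA5 and 31817 bp upon shRNA7 covered 37.6% and 38.8% of HSPA9, the mitochondrial chaperone. The same domains touched ETF1, counted among the translation factors. Glycolysis genes were touched at 1, 3 and 9 of 17 and at 2 and 1, with ENO1 at 27009 bp upon shRNA7 and GAPDH at 14677 bp upon shRNA7 alone. Genes of the integrated stress response were touched at 0, 4 and 8 of 19 and at 2 and 2. The domain over ATF4, its central transcription factor, was 17708 bp upon shRNA5, 19765 bp upon shRNA7, 11260 bp without and 11548 bp with doxycycline. DDIT3, a target of ATF4, lay in a 30842 bp domain upon shRNA7 only.

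Among 18 p53 target genes 1, 2 and 6 were touched in the hairpin arm and 1 in each doxycycline list. MDM2 was the gene touched in all 5. CDKN1A, the cell cycle inhibitor p21, had 12769 bp with 82.1 tags per kb upon shRNA5 and 15136 bp with 196 upon shRNA7, and BAX, a promoter of apoptosis, had 15697 bp upon shRNA7. Of 24 immediate early genes 1, 3 and 5 were touched in the hairpin arm and 0 and 1 in the doxycycline arm. EGR1 had 10813, 10094 and 12374 bp in the 3 hairpin lists, with 256, 246 and 275 tags per kb, so its density differed little among them. Actin and tubulin genes were touched at 1, 3 and 5 of 14 and at 1 and 0, and 14-3-3 genes, which encode phosphoprotein-binding adaptors, at 1, 3 and 5 of 7 and at 1 and 1. ACTB, cytoplasmic actin, had 10835 bp in control shRNA, 11663 bp upon shRNA5, 12066 bp upon shRNA7 and 12812 bp without doxycycline.

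Nearly all domains touched a gene, as most other peaks did, and they held a TSS or a whole gene more often than all peaks of their list. A protein-coding gene was touched by 100 of 102 control shRNA domains, 629 of 643 upon shRNA5, 1539 of 1571 upon shRNA7, 99 of 106 without (93.4%) and 119 of 121 with doxycycline. Peaks of 5 to 10 kb touched one in 97.3%, 94.1%, 93.5%, 95.8% and 97.3% of cases in the same order, and all peaks in 86.4% to 91.1%. The TSS of a protein-coding transcript was inside 71.6% (62.2% to 79.4%) of control shRNA domains, 63.3% (59.5% to 66.9%) upon shRNA5, 65.1% (62.7% to 67.4%) upon shRNA7, 81.1% (72.6% to 87.4%) without and 76.0% (67.7% to 82.8%) with doxycycline. Peaks of 5 to 10 kb held a TSS in 47.6%, 39.7%, 39.0%, 60.3% and 51.2% of cases in the same order. A longer peak has more room for a TSS, and the part of length in these shares was not tested. A whole protein-coding gene was covered by 33 control shRNA domains (32.4%, 24.1% to 41.9%), 173 upon shRNA5 (26.9%, 23.6% to 30.5%), 453 upon shRNA7 (28.8%, 26.7% to 31.1%), 40 without (37.7%, 29.1% to 47.2%) and 39 with doxycycline (32.2%, 24.6% to 41.0%). Peaks of 5 to 10 kb covered a whole gene in 16.2%, 8.48%, 6.86%, 27.7% and 21.4% of cases, and all peaks in 3.10%, 1.62%, 2.28%, 0.421% and 0.528%. The genes covered whole were short, with a median of 9425, 6415.5, 5821, 9286.5 and 9408 bp in that order, against 27194 bp over all protein-coding genes. Several genes often shared 1 domain, since at least 2 protein-coding genes were touched by 48, 358, 857, 50 and 54 domains, with up to 8 upon shRNA7.

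Domains with a TSS inside were denser than those without. They were also longer in each list, with median lengths of 13385 against 11037 bp in control shRNA. The part of length in the density was not tested. The median was 81.1 tags per kb (74.6 to 97.1) against 60.7 (57.7 to 66.1) in the control shRNA list, 82.0 (79.0 to 84.4) against 65.7 (64.0 to 67.7) upon shRNA5, and 84.7 (83.0 to 86.7) against 64.9 (63.5 to 66.0) upon shRNA7. It was 69.9 (62.9 to 79.9) against 49.9 (41.9 to 54.9) without and 79.4 (73.5 to 86.7) against 58.8 (55.4 to 66.2) with doxycycline. In each list the intervals of both classes were apart.

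Relative to the protein-coding gene that shares most bases, domains reached past the annotated end of the gene more often than not. This was so for 57 of 100 control shRNA domains, 374 of 629 upon shRNA5 (59.5%), 857 of 1539 upon shRNA7 (55.7%), 56 of 99 without and 70 of 119 with doxycycline (58.8%). Of all peaks on a gene, 15.7%, 11.0%, 12.2%, 3.14% and 3.43% did so in these lists. A longer peak has more room to pass a gene end, and the part of length in these shares was not tested. The median reach past the end was 3915 bp in control shRNA, 4776 bp upon shRNA5, 5419 bp upon shRNA7, 2839 bp without and 2303.5 bp with doxycycline. More than 5 kb past the end were 15 of the control shRNA domains (15%, 9.31% to 23.3%), 176 upon shRNA5 (28.0%, 24.6% to 31.6%), 468 upon shRNA7 (30.4%, 28.2% to 32.8%), 13 without (13.1%, 7.84% to 21.2%) and 10 with doxycycline (8.40%, 4.63% to 14.8%). Upstream of the gene start the domains that held it reached 961, 1170, 1657, 791.5 and 690 bp in the median. The farthest reach upon shRNA7 was 27757 bp past SUPT6H, in the domain that also holds RPL23A, and next came HNRNPR with 26832 bp. Other genes lie beneath such stretches, so the reach cannot be assigned to the first gene.

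**Figure D4:**
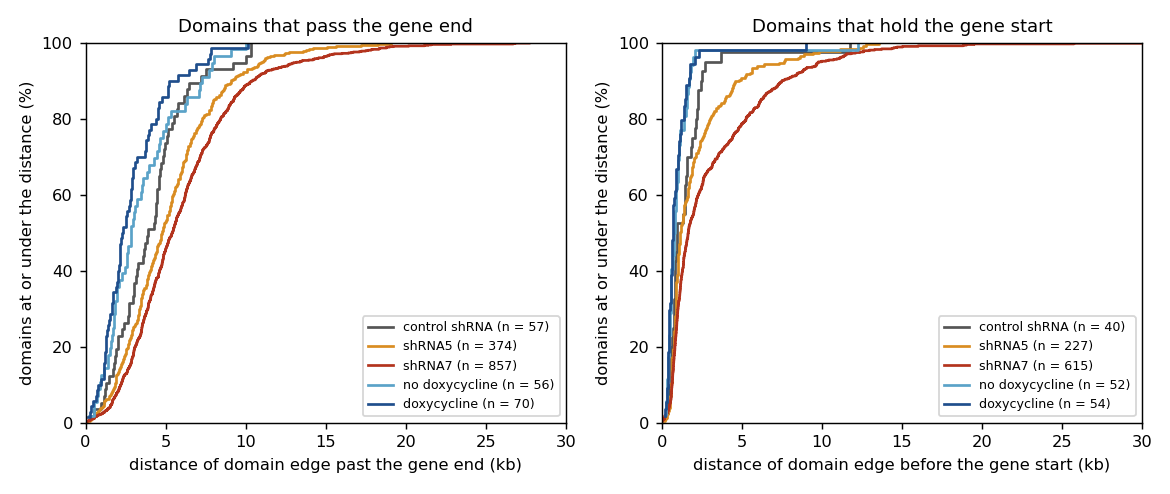
Cumulative share of domains (%) by the distance in kb from the gene end to the downstream edge (left, domains that pass the end) and from the gene start to the upstream edge (right, domains that hold the start), 1 line per library. The shRNA5 and shRNA7 lines lie to the right of control shRNA on the left panel, with medians of 4776 and 5419 bp against 3915 bp, and the 2 doxycycline lines lie to its left.

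The summit, where the signal was highest, was past the end of the gene in 12 of 100 control shRNA domains (12%, 7.00% to 19.8%), 157 of 629 upon shRNA5 (25%, 21.7% to 28.5%) and 407 of 1539 upon shRNA7 (26.4%, 24.3% to 28.7%). In the doxycycline arm it was past the end in 12 of 99 (12.1%) and 13 of 119 (10.9%). Among all peaks on a gene the summit was past its end in 6.73%, 5.82%, 7.03%, 1.35% and 1.43%, in the same order. The part of peak length in this was not tested. The gene is the one that shares most bases, and 48, 358, 857, 50 and 54 domains touched at least 2 protein-coding genes. A summit past the end of the named gene can thus lie on a neighbouring gene. No share over all peaks was computed for summits near the start. Within 500 bp of the gene start were 27.0%, 18.9% and 19.1% of domain summits in the hairpin arm and 35.4% and 31.1% in the doxycycline arm. PCBP2 is an example, since its summit was 43 bp and 13 bp before the gene start without and with doxycycline but 3522 bp and 3157 bp past the gene end upon shRNA5 and shRNA7. A summit is a single position on a long plateau and can move far for a small change in tags.

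Where a control shRNA domain overlapped an shRNA5 domain named by the same gene (87 pairs), the shRNA5 domain reached farther at the downstream edge in 77 and at the upstream edge in 75. The median shift was 1380 bp (735 to 2080) downstream and 334 bp (238 to 1172) upstream. Against shRNA7 (69 pairs) both edges lay farther out in 65 pairs each, by a median of 2224 bp (1568 to 3405) downstream and 2364 bp (1042 to 4540) upstream. In the 65 pairs of the doxycycline arm the downstream edge lay farther with doxycycline in 32 and the upstream edge in 22, with median shifts of -4 bp (-261 to 239) and -81 bp (-155 to -14). In most of these pairs each edge lay farther out in the RECQL5 hairpin lists than in control shRNA, while the median shifts in the doxycycline arm were small. Only places where both lists had a domain entered, so the pairs were themselves chosen by length. The intervals are over pairs of domains and not over replicate libraries. The part of library depth and of the peak call in these shifts was not tested. Summits of the paired domains were within 500 bp of each other in 50 of 87, 39 of 69 and 55 of 65 pairs.

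At the place of nearly every control shRNA domain, the shRNA5 list had a peak. This held for 99 of 102 (97.1%, 91.7% to 99.0%), where 97.4% of all control shRNA peaks were touched, and 95 of the 102 met another domain. The share was thus close to that of all peaks. The shRNA5 peaks covered 97.2% of their bases. Upon shRNA7 80 of 102 were touched (78.4%, 69.5% to 85.3%), where 88.4% of all control shRNA peaks were, and each of these 80 met a domain. For the matched domains the longest shRNA5 peak was longer than the control domain in 90 of 99, and the longest shRNA7 peak in 79 of 80. Tags per kb were higher upon shRNA5 in 98 of 99, by a median of 1.44-fold (1.42 to 1.49), and upon shRNA7 in 80 of 80, by 1.86-fold (1.77 to 1.94). The tags are not scaled to library depth, whose part in this was not tested. The authors' fold enrichment over IgG, which is relative to local background, was higher in 57 of the 99 and 51 of the 80.

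In the reverse direction the picture was different. Of 643 shRNA5 domains 568 touched a control shRNA peak (88.3%), where 19% of all shRNA5 peaks did, but only 96 met a control domain. At 193 places the control list had 1 shorter peak and at 279 it had several, up to 7, and these control peaks covered 52.5% of domain bases. Of 1571 shRNA7 domains 1075 touched a control shRNA peak (68.4%), where 11.7% of all shRNA7 peaks did, and 80 met a control domain. Control peaks were a single shorter one at 522 places and several at 473, and covered 27.5% of domain bases, while 496 places had no control peak at all. At these 496, all of the other 3 lists had a peak in 372. Most domains of the RECQL5 hairpin lists thus lay where the control list had shorter peaks, with a median of 5470.5 bp for the longest control peak under an shRNA5 domain and 3334 bp under an shRNA7 domain.

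The 2 RECQL5 hairpin lists were compared with each other in the same way. Of 643 shRNA5 domains 489 met an shRNA7 domain and 124 met no shRNA7 peak, and 80.7% were touched where 85.2% of all shRNA5 peaks were. Of 1571 shRNA7 domains 477 met an shRNA5 domain, 160 met 1 shorter shRNA5 peak, 902 several and 32 none, so that 98% were touched where 51.9% of all shRNA7 peaks were. The shRNA7 peak at a shared place was the longer for 437 of 519 shRNA5 domains. Examples without an shRNA5 peak were GMNN, the inhibitor of replication licensing (21503 bp with 112 tags per kb upon shRNA7), and NPC1, a cholesterol transporter (21679 bp with 81.6 tags per kb).

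**Figure D5:**
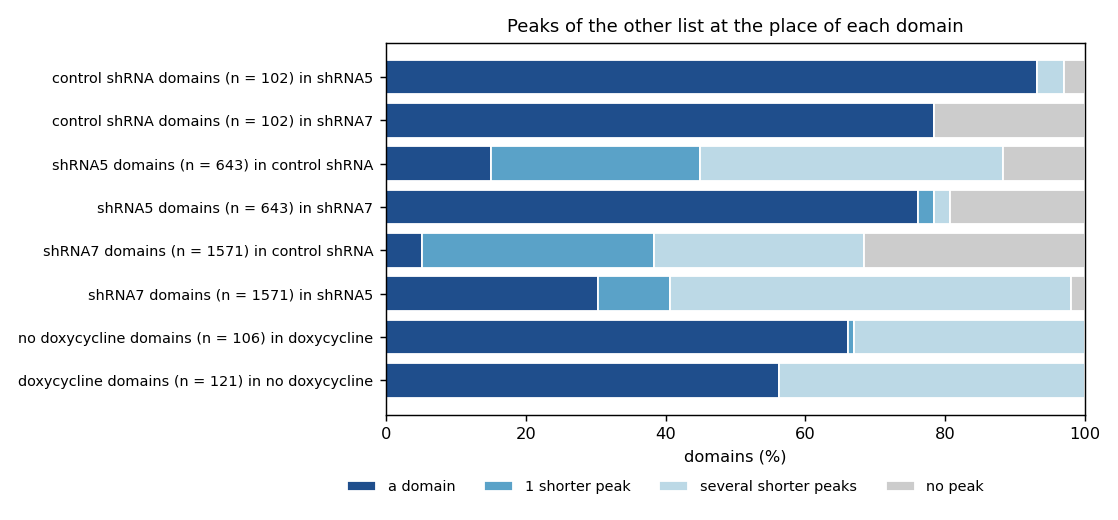
Share of domains (%) of the first-named list with a domain, 1 shorter peak, several shorter peaks or no peak of the second list at the same place (overlap of at least 1 bp), with the number of domains in parentheses. Control shRNA domains met domains in 95 and 80 of 102 cases, while shRNA7 domains mostly met shorter control shRNA peaks (522 places with 1 and 473 with several) or none (496).

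At a set of places the shRNA7 list had no peak. Of the 102 control shRNA domains 22 had no shRNA7 peak, and at 19 of these 22 the other 3 lists all had a peak. The nearest shRNA7 peak was 3983 to 398282 bp away, with a median of 27580.5 bp, and at 17 it was over 10 kb away. At the others it lay nearer, down to 3983 bp. The HNRNPC gene is an example, with control shRNA domains of 17254 and 11037 bp, an shRNA5 domain of 38925 bp and 4 domains in a row with doxycycline that spanned 71582 bp. The nearest shRNA7 peak to the longer control domain was 37731 bp away. TLE3, a transcriptional corepressor, had 18293 bp in control shRNA and the nearest shRNA7 peak 398282 bp away. The others in control shRNA included GATA6, YWHAE, RBM39, ZNF207, TRA2B, PAF1, PRC1 and RSRC2.

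The same gaps were seen from the other lists. Of 643 shRNA5 domains 124 had no shRNA7 peak, and 110 of these had a peak in all other 3 lists. The longest after HNRNPC were RSRC2 (30344 bp), TRA2B (29402 bp), DONSON (27777 bp) and DEK (27131 bp). In the doxycycline arm 84 of 106 no doxycycline domains met an shRNA7 peak (79.2%), where 59.4% of all peaks of that list did. With doxycycline 95 of 121 did (78.5%), where 67.2% of all peaks did. By contrast, 3 control shRNA domains (BCLAF1, SNHG17 and MCM3) had no shRNA5 peak, and these had none upon shRNA7 either. Gaps were not particular to shRNA7. The control shRNA list, with the fewest peaks, had none at 75 shRNA5, 496 shRNA7, 12 no doxycycline and 10 doxycycline domains. All remaining lists had a peak at 48, 372, 5 and 8 of these. Whether the gaps of either list belong to the cells or to the peak call against its IgG library was not tested.

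In the doxycycline arm every domain of 1 list met a peak of the other. All 106 no doxycycline domains touched a doxycycline peak, where 45.6% of all peaks of that list did, and 70 met a domain. The other 36 met shorter peaks, 35 of them several. All 121 doxycycline domains touched a no doxycycline peak, where 61.8% of all peaks did. Of these 68 met a domain and 53 several shorter peaks. Peaks of the other list covered 94.1% and 93.8% of domain bases, so that most bases of these regions lay in peaks of both libraries. For the 106 domains without the drug, tags per kb were higher with it in 86, by a median of 1.16-fold (1.13 to 1.20). The fold enrichment over the shared IgG was higher in 3 of 106, with medians of 117 and 52.3. The 2 readouts went in different directions.

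Between the arms, all 102 control shRNA domains touched a no doxycycline peak, where 93.6% of all control shRNA peaks did, and all 102 touched a doxycycline peak, where 89.9% did. A domain was met by 49 and 50 of them. Several peaks of the doxycycline lists, up to 9 and 8, lay under most of the others. The cells of the 2 arms differ in their handling, and the values are set side by side only.

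Domains of 1 list also lay next to each other. With doxycycline 21 of 121 domains (17.4%) had another less than 5 kb away, and without it 14 of 106 (13.2%). Upon shRNA5 it was 71 of 643 (11.0%) and upon shRNA7 214 of 1571 (13.6%), while no control shRNA domain had such a neighbour. The longest runs were 4 domains at YWHAE upon shRNA5 (61832 bp) and at IGF2BP1 upon shRNA7 (70092 bp), beside those at HNRNPC with doxycycline.

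Few domains lay outside protein-coding genes. These were 2 in control shRNA, 14 upon shRNA5, 32 upon shRNA7, 7 without and 2 with doxycycline. Beside XIST they covered NEAT1, the scaffold of paraspeckles, with 25800 bp and 111 tags per kb upon shRNA5 and 30841 bp and 187 tags per kb upon shRNA7. MALAT1, another abundant nuclear RNA, had 11072 bp with 201 tags per kb upon shRNA5, 12277 bp with 303 upon shRNA7 and 10688 bp with 69.0 without doxycycline. The microRNA host genes MIR17HG (12765 bp upon shRNA5, 15194 bp upon shRNA7) and MIRLET7A1HG (20151 bp upon shRNA7), and CDKN2B-AS1 (17229 bp upon shRNA5, 17005 bp upon shRNA7), were also under domains.

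Without doxycycline 2 domains lay over the 5S ribosomal RNA array of chromosome 1, at 228743759-228754070 (RNA5S1, 10312 bp, 55.3 tags per kb) and 228756795-228782797 (RNA5S6, 26003 bp, 52.5 tags per kb). These genes are transcribed by RNA polymerase III and are repeated copies, so tags there cannot be assigned to 1 copy. No other list had a domain there. Finally, 2 domains upon shRNA5 and 4 upon shRNA7 touched no annotated gene. The shRNA5 domains were chr20:47717131-47729000 (11870 bp, 88.8 tags per kb) and chr7:102162515-102174023 (11509 bp, 89.3 tags per kb).

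Exons of protein-coding genes made up 24.6% of the bases of control shRNA domains, 24.0% upon shRNA5, 22% upon shRNA7, 22.3% without and 22.2% with doxycycline. Bases outside protein-coding genes made up 18.3%, 17.8%, 18.5%, 20.4% and 13.7%. For all peak bases the exon shares were 25.9%, 19.1%, 17.5%, 20.5% and 21.5%. Domains thus held a higher exon share than all peaks in 4 lists and a lower one in the control shRNA list.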

How the data were processed

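RNAPII ChIP-seq of HEK293 cells was made by the authors as 5 RNAPII and 4 IgG libraries, 1 per group, from sheared chromatin. Per the labels, reads were processed with CASAVA 1.8, aligned to hg19 with Bowtie 0.12.7, and peaks were called with MACS 1.4.2 for each RNAPII library against IgG. The deposited tag counts are raw counts per peak, not scaled to depth, and library totals were not used here. The authors' significance is 10 times the −log10 of the p-value and stops at 3100, their fold enrichment is a ratio over local background, and their FDR is a percent. Coordinates lay within GRCh37 for every peak, and genes were taken from GENCODE release 44 on that build.

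Peaks of at least 10000 bp by the deposited length were kept as domains. Overlap meant at least 1 bp, and overlapping domains of the 5 lists were merged into places. A domain was named by the protein-coding gene that shares most bases, otherwise by another gene. Tags per kb are tags divided by length. Wilson intervals for shares and order-statistic intervals for medians, at 95%, were computed with Python 3.11.15, pandas 2.3.3, numpy 2.4.6 and scipy 1.17.1 and tested on simulated data. Both cover counting error only, and with 1 library per group no test between groups was possible. Named genes were the 3 longest and 3 densest domains per list, the 10 longest of control shRNA and the 2 doxycycline lists, places with a domain in at least 3 lists, the neighbours of the threshold, domains outside genes and up to 4 members per gene list. ADAMTS1, GMNN, NPC1 and other examples of absence or of non-coding genes were chosen after their values were seen. The values of 1 gene are not reported here. The members and gene lists were chosen with earlier results of these data known.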

Additional observations from a re-analysis of the deposited data

How the results depend on the processing

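No paired analysis was possible because 1 library stood for every condition, which also left no replicate to take out. Of the values recomputed, 88 moved by less than their interval or, for counts, less than 1.5 times, and 68 moved further, in each case as printed here in the order control shRNA, shRNA5, shRNA7, no doxycycline, doxycycline. The cause was not tested except where the setting itself changes the domains counted. The number of domains was 193, 1028, 2448, 175 and 197 at a minimum of 8 kb, 29, 208, 622, 31 and 46 at 15 kb, and 200, 1186, 2504, 519 and 490 with peaks under 1 kb apart merged. The share with a TSS was 82.8%, 73.1%, 74.6% and 90.3% at 15 kb in the first 4 lists, and 57.5% (shRNA5), 58.8% (shRNA7) and 66.0% (doxycycline) at 8 kb. It was 71.9% and 70.9% for shRNA5 and shRNA7 at a fold enrichment of at least 10, and 68.6% (shRNA7) and 67.3% (doxycycline) after merging. With all annotated genes it was 91.2%, 87.7%, 86.8%, 96.2% and 93.4%, and with the longest coding transcript alone 55.9%, 49.1%, 53%, 67.0% and 57.9%. The share covering a whole gene was 51.7%, 32.7% and 38.7% at 15 kb in the hairpin lists, 22.3% and 23.4% at 8 kb and 33.1% and 33.3% at a fold enrichment of at least 10 for shRNA5 and shRNA7, and 56.9%, 50.9%, 52.1%, 64.2% and 58.7% with all annotated genes. Median tags per kb were 86.7, 84.6 and 85.4 at 15 kb in the hairpin lists, and 71.1 and 70.7 at 8 kb and 81.7 and 81.1 at a fold enrichment of at least 10 for shRNA5 and shRNA7. The share of control shRNA domain bases in shRNA5 peaks was 99.9% at 15 kb and 89.9% with equal numbers of strongest peaks, and in shRNA7 peaks 87.5% at 15 kb. The share of shRNA5 domain bases in control shRNA peaks was 58.0% at 15 kb, 43.0% at a score of at least 100 and 38.6% after merging. For shRNA7 domains in control shRNA peaks it was 24.3% at 8 kb, 33.7% at 15 kb, 20.6% at a score of at least 100, 19.1% after merging and 31.3% with equal numbers of strongest peaks. Merging gave 83.0% and 80.8% within the doxycycline arm. Cutting every list to as many peaks as the shortest one holds, strongest first, was chosen for the number of domains after seeing the data and gave 102, 529, 1104, 105 and 121. The study's methods describe the read numbers of the libraries compared within an arm as similar. The total of each library was not used here, so tags per kb are unscaled and the part of depth in the differences between lists was not tested.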
